A study of Rattus norvegicus with 12 samples.

Results

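Mesenteric lymph nodes of Wistar rat pups that took in conjugated linoleic acid (CLA) through the dam and her milk (Group A) were compared with those of pups that received none (Group D). The comparison used 6 of the 12 arrays of the series, 3 per group, and described all 31042 non-control probe sets of the Rat Genome 230 2.0 array. Dams of Group A ate a diet with 1% CLA over 2 weeks of gestation and the 3 weeks of suckling, which made 5 weeks of exposure, whereas dams of Group D were kept on standard diet throughout. The CLA was a mix of 80% cis9,trans11 and 20% trans10,cis12 isomers. Nodes were taken on day 21 of life, and each array held the total RNA of 1 pup out of the 10 in its dietary group. The litter of each pup was not given in the sources used here, so that the diet of the dam and the litter cannot be told apart. Groups B and C, which had CLA by oral gavage during suckling with (B) or without (C) the maternal diet, entered the fit only to share an estimate of the spread, and their levels are given beside some genes.

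Mesenteric lymph nodes drain the intestine, and it is there that T and B lymphocytes meet antigens and cells carried from the gut wall. Lymphocytes that are activated enlarge before they divide, which calls on ribosome assembly, protein synthesis, protein folding and nuclear transport. CLA isomers are fatty acids of ruminant fat and milk that can bind the peroxisome proliferator-activated receptors (PPARs), nuclear receptors that switch on genes of lipid uptake and fatty acid oxidation.

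The values are quantile-normalized MAS5 intensities on the log2 scale, on which a difference of 1 is a doubling. The nodes of both groups carried their defining markers: Cd3e of the T cell receptor complex lay between 10.36 and 10.77 in Group A and between 10.06 and 10.38 in Group D, Cd79b of the B cell receptor lay between 8.75 and 9.52 against 8.94 and 9.32, and the stromal chemokine Ccl21 lay between 11.76 and 12.21 against 11.74 and 12.12. Background, the level that 95% of 27 control probe sets without spiked target stayed under, was 2.66, 3.20 and 2.73 in the arrays of Group A and 2.93, 2.38 and 3.04 in those of Group D. Group D replicate 3 stood apart from its group: it correlated with the other arrays of Group D at 0.895 and 0.898, against 0.936 between those, and its mean correlation with Groups B and C was 0.931 and 0.930. The counts over gene lists below are also given without it where leaving it out moved them by more than 1 gene. The ratio of the 3' to the 5' control probe set of Gapdh, a sign of RNA integrity, was 1.21, 1.53 and 1.38 in Group A and 1.06, 1.11 and 1.22 in Group D, and that of hexokinase was 3.19, 4.96 and 2.84 against 2.53, 1.85 and 1.92. The hexokinase ratio was thus higher on every array of Group A, the Gapdh ratios overlapped narrowly, the beta-actin ratios overlapped fully (1.37 to 1.79 against 1.30 to 1.91), and their part in the results below was not tested. The tissue was assayed in bulk, so fewer cells of a type and less RNA per cell cannot be told apart.

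In Group A, 1827 probe sets were at least 2-fold lower (5.89% of those tested) and 742 at least 2-fold higher (2.39%) than in Group D, at an adjusted p under 0.05. Without Group D replicate 3 the counts were 1799 (5.80%) and 1087 (3.50%), of which 1464 and 456 were called both ways. Among probe sets without a gene symbol the higher calls went from 232 to 573, and among those with 1 symbol from 503 to 504. Lower values made up 71.1% of the 2-fold calls, 62.3% without Group D replicate 3 and 91.1% on the intensities as deposited, so the balance depended on how the arrays were scaled. The arrays of both groups did not overlap at all for 4537 probe sets with Group A lower (14.6%) and 5952 with Group A higher (19.2%). A permutation test on 3 against 3 arrays cannot give an exact two-sided p below 0.1, and the p-values used come from the fit across all probe sets. The numbers that follow count genes, each by its brightest probe set, that passed an adjusted p under 0.05 at any fold: over all 14217 genes, 12.0% passed lower and 16.0% higher (13.4% and 14.6% without Group D replicate 3), and the median difference was 0.15 (0.08 without it and -0.02 on the intensities as deposited).

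The genes that fell included many of the cell's basic machinery, whereas genes of T cell identity and MHC class II passed more often as higher. The shares for 27 of the lists are drawn in the bar plot of gene lists.

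**Figure D1:**
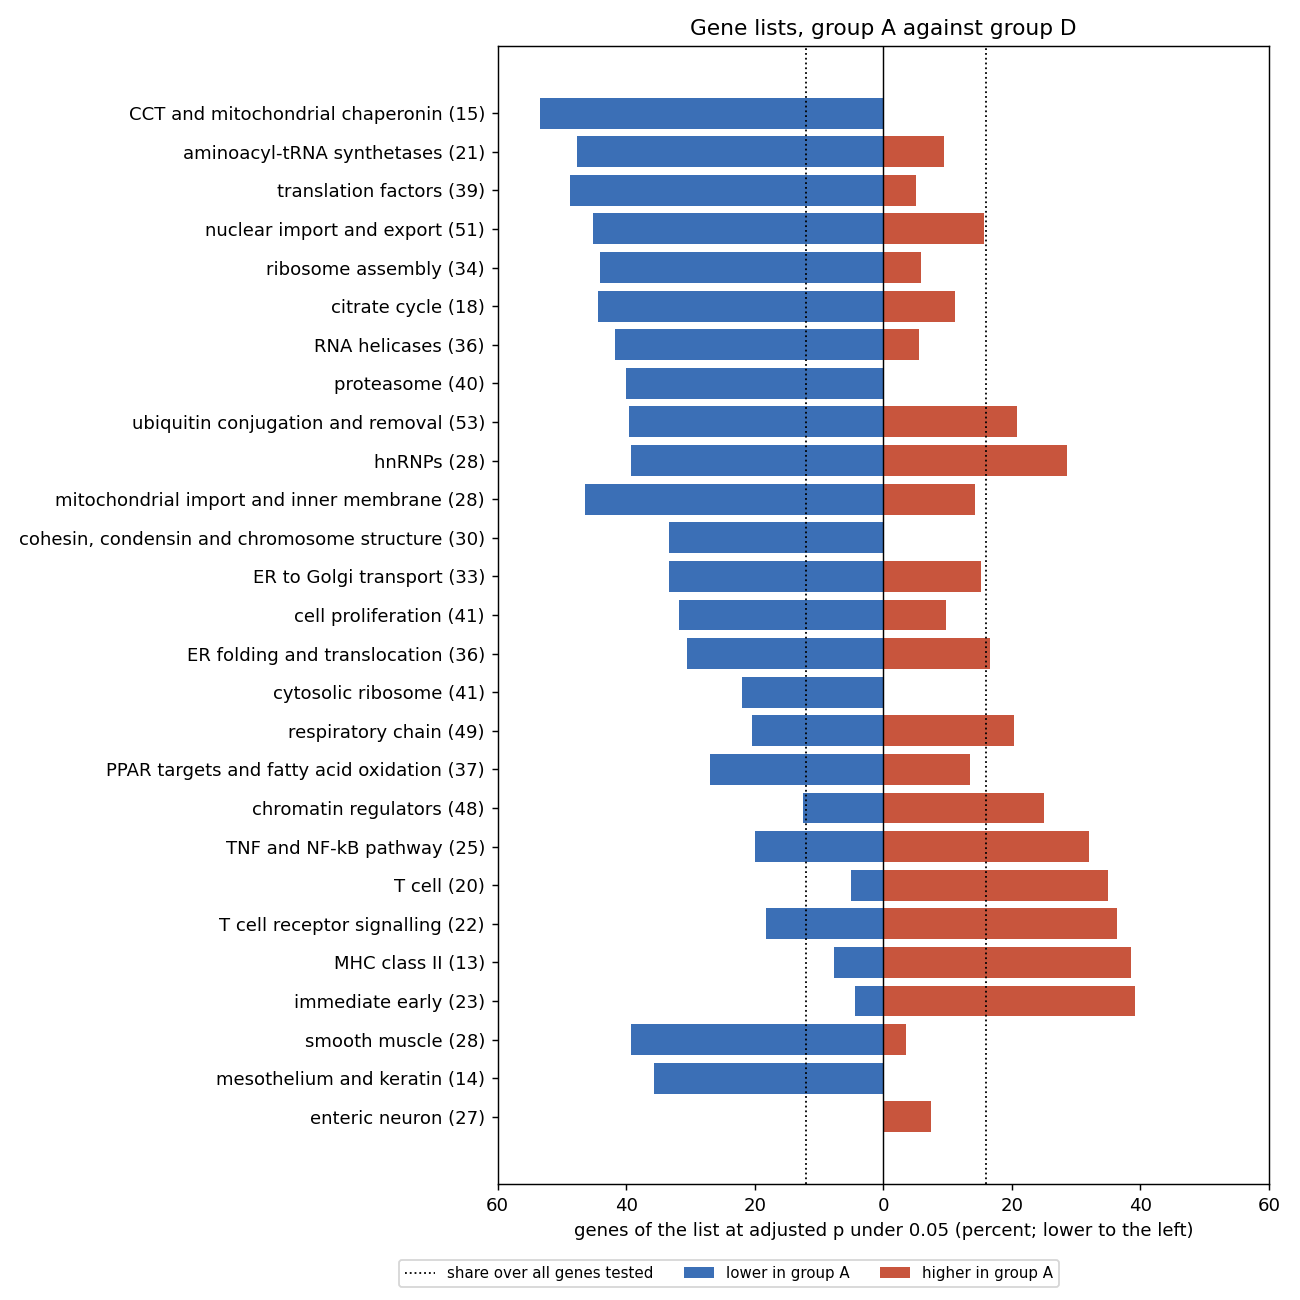
Share of the genes in each of 27 lists (number measured in brackets) that passed an adjusted p under 0.05 as lower (blue, to the left) or higher (red, to the right) in Group A than in Group D, in percent. Dotted lines mark the shares over all 14217 genes, 12.0% lower and 16.0% higher; 53.3% of the chaperonin list passed lower and none of it higher, and 39.1% of the immediate early list passed higher.

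Genes that build ribosomes were lower in Group A. Of 34 measured ribosome assembly genes, 15 passed lower (44.1%) and 2 higher, with a median of -0.43, and 15 and 1 passed without Group D replicate 3. Ncl, encoding nucleolin, which acts on ribosomal RNA transcription and packing, read 8.92, 8.50 and 8.74 in Group A and 10.27, 10.34 and 10.48 in Group D, a 3.12-fold lower level (log2 difference -1.64 ± 0.14 SE, adjusted p = 9.03e-06). The lowest array of Group D was above the highest of Group A by more than the range of either group. Brix1, needed for the large subunit, read 6.17, 5.75 and 6.05 against 7.94, 7.81 and 8.33 (4.11-fold lower, adjusted p = 4.5e-06). Its level in the gavage groups, 8.28 in B and 8.20 in C, was close to that of Group D. Gnl2, a nucleolar GTPase of the same pathway, was 4.28-fold lower, and a dimmer probe set of it did not pass (0.59). Of the proteins of the finished ribosome, 9 of 41 measured cytosolic ribosome genes passed lower (22.0%) and 0 higher, at a median of -0.03, with Rpl5 (-1.27), Rpl4 (-1.26) and Rpl7 (-1.21) as the largest falls. On the intensities as deposited the count was 5 lower and 0 higher, and the median was -0.34.

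Translation itself showed the same direction. Of 39 translation factor genes 19 passed lower (48.7%) and 2 higher, with 20 and 0 when Group D replicate 3 was left out. Eif3j, a loosely bound subunit of the factor that holds the small ribosomal subunit, read 7.70, 7.79 and 7.89 in Group A and 8.62, 8.71 and 9.17 in Group D, and both of its probe sets fell (log2 differences of -1.04 and -1.52). Among the aminoacyl-tRNA synthetases, which load amino acids on their tRNAs, 10 of 21 passed lower (47.6%) and 2 higher (12 and 2 without Group D replicate 3). Rars1, the arginine enzyme, read 6.85, 6.83 and 6.62 against 9.11, 8.93 and 8.57 (4.29-fold lower, adjusted p = 2.03e-06). Eprs1 (-1.84), Aimp1 (-1.70) and Tars1 (-1.22) fell too, whereas Vars1 (0.90) and Farsa (0.86) rose.

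Chaperonins, barrel-shaped folding machines of the cytosol and mitochondria, were lower in Group A. Of the 15 measured subunits of the CCT ring and the mitochondrial chaperonin 8 passed lower (53.3%) and 0 higher, at a median of -1.05 (9 and 0, median -1.20, without Group D replicate 3). Cct2, one of the ring's subunits, read 8.77, 7.96 and 8.31 in Group A and 10.31, 10.26 and 9.91 in Group D, a 3.52-fold lower level. Of 31 heat shock and DNAJ genes 10 passed lower and 3 higher (14 and 3 without Group D replicate 3). The higher ones were Dnajb1 (0.78), Bag3 (0.66) and Hsf1 (0.76), the last of which encodes the transcription factor of the heat shock response.

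In the endoplasmic reticulum (ER), which folds secreted and membrane proteins, 11 of 36 genes passed lower (30.6%) and 6 higher (16.7%), and 12 and 5 without Group D replicate 3. The 16.7% higher lay near the 16.0% over all genes, and as deposited 8 genes passed lower and 0 higher. Hspa5, the ER's main chaperone, read 9.69, 9.43 and 9.39 in Group A and 11.04, 11.11 and 10.45 in Group D (2.56-fold lower, adjusted p = 0.000199). Hsp90b1, another abundant chaperone of the ER, read 9.23, 8.78 and 8.99 against 10.58, 10.47 and 10.47 (2.85-fold lower, adjusted p = 8.35e-06). Both groups were far apart and did not overlap for either gene. Canx, the lectin chaperone calnexin, fell by 0.70 and its soluble relative Calr differed by 0.25 ± 0.17 (SE) and did not pass. The genes that rose were not those chaperones but, among others, Syvn1 (0.73) and Herpud1 (0.63), which remove misfolded proteins from the ER, and Sec61g (0.58), a small subunit of the translocation channel.

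Several of these genes share a promoter motif, the ER stress element (CCAAT, then any 9 bases, then CCACG), which is shown here because members with the motif differed in response. It was searched for on both strands in the 250 bases before the start of each gene in RefSeq's GRCr8 annotation, and 22 of 33469 promoters held it (0.0657%), against 6 of the 31 ER genes with a promoter sequence (19.4%). The promoters below are written 5' to 3' on the strand of the gene, with matches in capitals. In Hspa5 (chr3:38452766-38453015, plus strand) the match began 43 bases before the start, in Hsp90b1 (chr7:23012294-23012543, minus strand) 2 matches began 176 and 72 bases before it, in Canx (chr10:35157858-35158107, minus strand) the match began 230 bases before it, and in Calr (chr19:40213117-40213366, plus strand) 232 bases before it.
Hspa5: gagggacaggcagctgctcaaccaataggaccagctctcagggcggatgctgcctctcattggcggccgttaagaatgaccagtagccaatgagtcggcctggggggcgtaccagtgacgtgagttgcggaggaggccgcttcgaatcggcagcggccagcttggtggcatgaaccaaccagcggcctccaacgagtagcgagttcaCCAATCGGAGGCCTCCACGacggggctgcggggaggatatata
Hsp90b1: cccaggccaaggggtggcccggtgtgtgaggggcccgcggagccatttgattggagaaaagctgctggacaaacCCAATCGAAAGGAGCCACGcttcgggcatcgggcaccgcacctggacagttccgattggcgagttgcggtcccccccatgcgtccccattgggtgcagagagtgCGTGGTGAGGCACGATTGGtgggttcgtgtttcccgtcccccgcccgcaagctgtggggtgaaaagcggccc
Canx: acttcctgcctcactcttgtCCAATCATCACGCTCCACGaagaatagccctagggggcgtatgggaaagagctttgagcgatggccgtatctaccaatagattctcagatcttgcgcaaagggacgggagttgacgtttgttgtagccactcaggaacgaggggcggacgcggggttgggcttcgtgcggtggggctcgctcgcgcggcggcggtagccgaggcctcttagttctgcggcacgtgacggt
Calr: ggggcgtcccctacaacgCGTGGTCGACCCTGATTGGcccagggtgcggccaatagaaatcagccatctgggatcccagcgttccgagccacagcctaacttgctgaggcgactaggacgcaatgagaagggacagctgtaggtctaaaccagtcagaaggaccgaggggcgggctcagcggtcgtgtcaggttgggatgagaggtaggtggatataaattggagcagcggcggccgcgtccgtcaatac
Hspa5, Hsp90b1 and Canx passed lower, Calr, Xbp1 (-0.05) and Ero1b (-0.95) did not pass, although Xbp1 passed lower without Group D replicate 3 (-0.30, adjusted p = 0.0381). Outside the ER list, Dnajc3 (-1.35) and Hnrnpa3 (-1.40) with the motif passed lower, and Birc5 (0.75) with the motif passed higher. A match describes the letters of the window and neither a bound site nor a cause of a change.

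Of 33 genes of transport from the ER to the Golgi 11 passed lower (33.3%) and 5 higher (15.2%). The share higher was near that over all genes (16.0%), and as deposited 7 passed lower and 0 higher. Copb2, a coat protein of transport vesicles, read 7.59, 7.59 and 7.62 in Group A and 9.21, 9.38 and 9.17 in Group D, a 3.16-fold lower level (adjusted p = 1.49e-06). Spread within each group was small, and Groups B (9.08) and C (9.11) were level with Group D. Lman1, the receptor that carries glycoproteins out of the ER, read 5.15, 4.48 and 5.08 against 6.53, 6.56 and 6.49. Copb1 (-1.56) and Uso1 (-1.31) fell as well, while Sec31a (0.73) and Gosr1 (0.65) rose; without Group D replicate 3 the list counted 13 lower and 2 higher, and 1 higher was left when replicate 1, 2 or 3 of Group A or the second of Group D was dropped.

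Genes of protein breakdown were lower at the proteasome itself. Of 40 measured proteasome genes 16 passed lower and 0 higher (17 and 0 without Group D replicate 3). Psmd6, a lid subunit of the regulatory particle, read 7.39, 7.10 and 7.66 in Group A and 9.29, 9.25 and 8.89 in Group D (3.39-fold lower). The other falls spanned the catalytic core, such as Psma4 (-1.50), the ATPase ring, such as Psmc1 (-1.25), and the activator Psme4 (-1.70). Of 53 genes that attach or remove ubiquitin 21 passed lower (39.6%) and 11 higher (20.8%), and 22 and 8 without Group D replicate 3. The lower ones included the COP9 signalosome subunit Cops5 (7.37, 6.34 and 6.80 against 8.79, 8.76 and 8.24), the ligase scaffold Cul1 (-1.44) and the deubiquitinases Usp47 (-1.87) and Usp15 (-1.50). Among the 11 higher ones were 9 conjugating enzymes, led by Ube2r2 (9.02, 8.72 and 8.99 against 8.06, 7.78 and 7.70; 2.08-fold higher), with the ligase Nedd4l (0.52) and the ring protein Rbx1 (0.35), of which a dimmer probe set passed in the opposite direction (-0.51). On the intensities as deposited 17 of these genes passed lower and 2 higher, and leaving out replicate 1, 2 or 3 of Group A left 6, 5 and 5 higher. Vcp, the ATPase that pulls ubiquitinated proteins apart, was 2.38-fold lower.

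Mitochondrial genes did not move as a block. In the respiratory chain 10 of 49 genes passed lower (20.4%) and 10 higher, and 14 and 5 without Group D replicate 3, while leaving out replicate 1, 2 or 3 of Group A left 6, 4 and 4 higher. Among the lower ones were Uqcrc2 of complex III (8.26, 7.99 and 8.16 in Group A and 10.02, 10.09 and 10.27 in Group D; 3.97-fold lower), Ndufs1 of complex I (7.03, 6.59 and 6.93 against 8.54, 8.69 and 8.31) and Sdha of complex II (-1.54). Among the higher ones were Cox8a of complex IV (10.91, 11.11 and 10.98 against 10.54, 10.50 and 10.30), Ndufa1 (0.55) and Cox6a1 (0.53). None of the 10 higher genes passed on the intensities as deposited, where 4 of the chain passed lower. Of 18 citrate cycle genes 8 passed lower (44.4%) and 2 higher, with Dld, a subunit shared by the pyruvate and oxoglutarate dehydrogenases, at 6.40, 6.24 and 6.72 against 8.03, 8.35 and 8.45 (3.54-fold lower). Import and inner membrane genes counted 13 lower (46.4%) and 4 higher of 28 (8 lower without Group A replicate 2), and Hspa9, the import motor, was among the lower (-1.45). In glycolysis 4 of 21 passed lower and 3 higher (7 and 2 without Group D replicate 3), with Hk2 (-1.49) and Ldha (-1.18) the largest falls.

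RNA-handling genes were lower in part. RNA helicases, which unwind RNA in splicing and ribosome assembly, counted 15 lower (41.7%) and 2 higher of 36, and 15 and 0 without Group D replicate 3. Ddx1 read 7.41, 7.20 and 7.25 in Group A and 8.98, 9.09 and 8.70 in Group D (3.11-fold lower, adjusted p = 2.97e-06). The hnRNP list of RNA-binding proteins had 11 lower (39.3%) and 8 higher (28.6%) of 28, but 3 higher without Group A replicate 2, 4 without Group A replicate 3 and 0 as deposited. Hnrnpa1, a splicing regulator, was lower on all 3 of its probe sets (-1.96, -0.85 and -0.65), whereas Hnrnpul1 (0.77) and Ptbp1 (0.48) rose. Splicing factors counted 14 lower and 9 higher of 57, with 4 higher without Group A replicate 2 and 0 as deposited. For Sf3b1, which recognises the branch point, Group D itself was split: its arrays read 9.31, 9.51 and 10.63, the last being replicate 3 and near Groups B (10.50) and C (10.55), and Group A read 8.36, 8.67 and 8.67 (-1.25, and -0.84 without that replicate). In Ddx46, too, replicate 3 was the highest array of Group D (7.12, 6.56 and 6.86 against 7.89, 8.11 and 9.03).

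Carriers and pores of the nuclear envelope had 23 of 51 genes lower (45.1%) and 8 higher (15.7%), and 24 and 5 without Group D replicate 3. Xpo1, the main export receptor, read 6.85, 6.79 and 7.00 in Group A and 8.61, 8.53 and 9.06 in Group D (3.61-fold lower), and its other probe set fell (-1.02). The import receptor Kpnb1 (-1.24) and the pore protein Nup155 (5.94, 6.18 and 5.96 against 7.68, 7.42 and 7.38) were lower in the same way. Higher were Rangap1 (0.68) and the pore proteins Nup214 (0.67), Nup188 (0.65) and Nup210 (0.61). As deposited, 18 genes of the list passed lower and 0 higher, and leaving out Group A replicate 1 left 4 higher.

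Genes of DNA replication and mitosis counted 13 lower (31.7%) and 4 higher of 41. The number lower was 20 without Group D replicate 3, 8 without Group A replicate 2, 8 without Group D replicate 2 and 9 as deposited. Rrm1, the large subunit of ribonucleotide reductase, which makes DNA precursors, read 6.50, 6.94 and 6.46 in Group A and 8.59, 8.72 and 8.34 in Group D (3.77-fold lower, adjusted p = 4.37e-06). Prim1, the DNA primase, was 3.53-fold lower. The proliferation marker Mki67 read 7.33, 7.34 and 7.25 against 8.05, 8.19 and 8.19, and the sliding clamp Pcna fell by 0.73. Opposite in sign were Plk1, a mitotic kinase (7.75, 7.80 and 7.78 against 7.10, 6.93 and 6.09; 1.07 higher), and the mitotic survivin gene Birc5, which did not pass without Group D replicate 3 (0.57, adjusted p = 0.0611). Cohesin and condensin genes, which hold and fold chromosomes, had 10 lower (33.3%) and 0 higher of 30. Of these, Smc1a read 6.85, 6.40 and 6.42 against 7.86, 8.01 and 8.03.

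**Figure D2:**
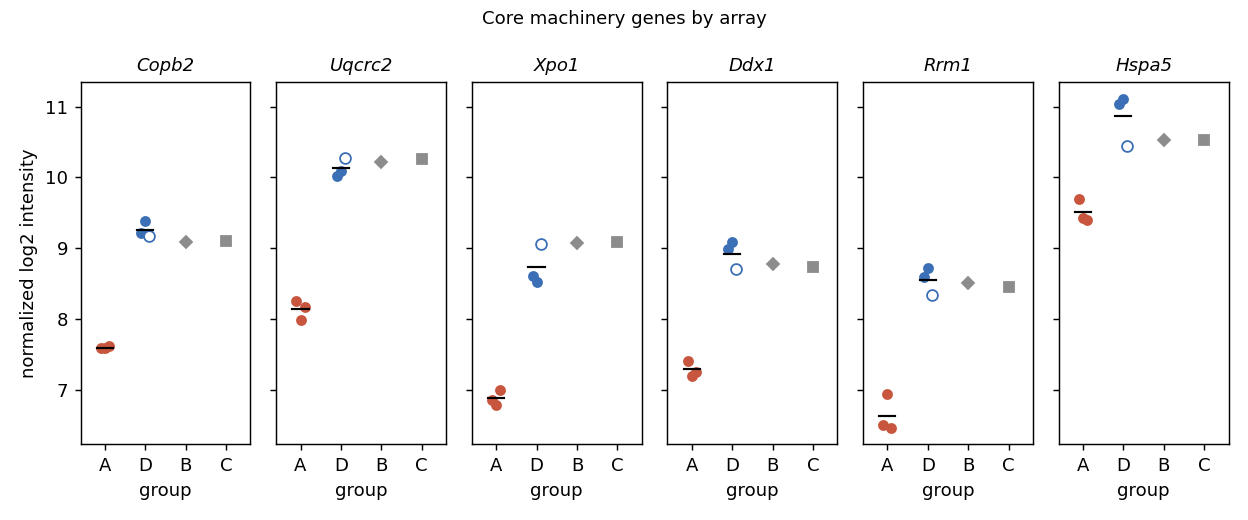
Normalized log2 intensity of 6 core machinery genes, with a point for each array of Groups A and D, a black line at their means and grey markers at the means of Groups B (diamond) and C (square); the open circle is Group D replicate 3. For each gene all arrays of Group A were below all of Group D, and the means of Groups B and C lay near Group D.

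Many genes of the array are read by several probe sets, which lie on different parts of the transcript and need not give the same difference. Of 3391 genes with at least 2 probe sets above background in either group, 2316 (68.3%) had all of them on the same side of 0, and 17 had a probe set that passed lower beside another that passed higher. The typical distance between the extremes of a gene was 0.56 on the log2 scale, and 1.12 for genes with a 2-fold lower probe set. Of 700 such genes 104 were 2-fold lower on every probe set, 299 had no other that passed lower and 9 had another that passed higher. Of 164 genes with a 2-fold higher probe set 15 were so on every one. Ptprc, encoding the leukocyte antigen CD45, differed by -3.47 on one probe set (6.68, 5.64 and 6.34 in Group A and 9.23, 9.11 and 10.74 in Group D) and by -1.03 on the brighter one (8.94, 9.28 and 9.33 against 9.90, 9.89 and 10.85). For Canx the differences were -3.59, -1.52 and -0.70, the smallest on the brightest probe set. Tardbp, an RNA-binding protein, fell on all 3 of its probe sets (-1.98, -1.91 and -1.40), and so did the alarmin cytokine Il33 on both (-2.18 and -1.32). The direction was thus shared for these genes, while the size depended on the probe set.

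**Figure D3:**
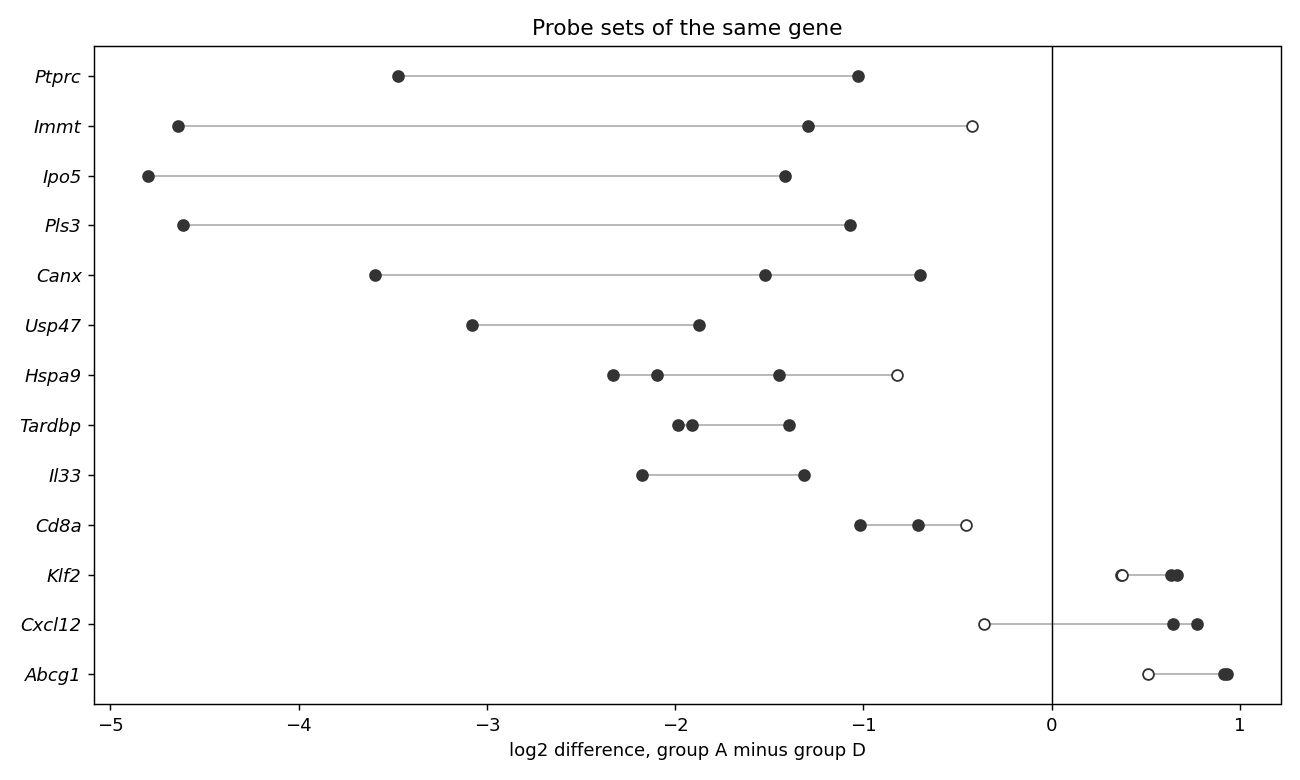
Log2 difference, Group A minus Group D, of each probe set above background (points) for 13 genes with several probe sets; filled points passed an adjusted p under 0.05 and open points did not. For Canx the points run from -3.59 to -0.70, and for Ptprc they are at -3.47 and -1.03.

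The rises depended on scaling, among immune genes and in other lists alike. Over all gene lists, 356 genes passed lower and 211 higher. On the intensities as deposited, where the median over all genes was -0.02 in place of 0.15, these counts were 268 and 23. As deposited, 0 genes passed higher in the lists of heat shock, ER, ER to Golgi, mitochondrial import, glycolysis, matrix and cholesterol genes. The same held for ribosome assembly, translation factors, aminoacyl-tRNA synthetases, RNA helicases, the citrate cycle, and replication and mitosis. For the immune lists below the count and median as deposited are therefore given.

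T cell identity genes counted 7 higher (35.0%) and 1 lower of 20, with a median of 0.28 (7 and 1 without Group D replicate 3; 1 higher and 0 lower as deposited, median 0.25). Gata3, the factor of helper type 2 T cells, read 7.34, 7.20 and 7.62 in Group A and 6.37, 6.37 and 6.43 in Group D (2.00-fold higher, adjusted p = 0.000748). A dimmer probe set of the same gene differed by 0.35 and did not pass. Cd7 (0.75), Cd6 (0.73) and Zap70 (0.56), all of T cell surface or receptor signalling, rose, and Zap70 had hardly any spread (9.79, 9.75 and 9.81 against 9.25, 9.26 and 9.17). Cd8a, the coreceptor of cytotoxic T cells, went the other way, with 8.74, 8.31 and 8.28 against 9.24, 8.94 and 9.27 on its brightest probe set. Its differences were -0.71 there and -1.02 on a dimmer probe set, and the dimmest differed by -0.46 without passing.

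Genes of naive T cell homing and survival counted 4 higher and 1 lower of 12 (1 and 1 as deposited, median 0.17), and 2 higher without replicate 2 or 3 of Group A or replicate 1 or 2 of Group D. Foxo1, the transcription factor that keeps naive T cells alive, read 9.09, 9.46 and 9.17 in Group A and 7.76, 8.28 and 8.57 in Group D (2.06-fold higher), and its target Klf2 read 10.76, 10.99 and 10.83 against 10.14, 10.18 and 10.28 (1.58-fold higher). Il7r, the interleukin 7 receptor and another target of Foxo1, was the gene that fell: 5.99, 5.76 and 6.40 against 6.73, 7.01 and 8.54. Replicate 3 of Group D was the high array and lay near Groups B (8.36) and C (8.53), and the difference was -1.38 with it and -0.82 without it.

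Within T cell receptor signalling 8 genes passed higher (36.4%) and 4 lower (18.2%) of 22 (9 and 3 without Group D replicate 3; 0 and 2 as deposited, median 0.14), and 5 passed higher without replicate 2 or 3 of Group A and 4 without Group D replicate 2. Higher were the kinase Csk, which holds the receptor's kinases in check (10.32, 10.52 and 10.30 in Group A and 9.72, 9.67 and 9.54 in Group D), Nfatc1 (0.77), a calcium-driven transcription factor, and the ligase Cblb (0.67). Rasgrp1, which links the receptor to Ras, was 6.07-fold lower on one probe set (4.64, 3.30 and 4.56 against 6.43, 6.68 and 7.20) and 2.73-fold lower on the other. Ptprc and Prkcq (-0.67) fell with it.

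For antigen presentation by MHC class II, 5 of 13 genes passed higher (38.5%) and 1 lower, at a median of 0.48 (the same counts without Group D replicate 3; 1 higher and 0 lower as deposited, median 0.43), and 3 passed higher without replicate 2 of Group A or of Group D. Ciita, the master activator of class II genes, averaged 8.97 ± 0.03 (SD, n = 3) in Group A and read 8.12, 8.05 and 8.40 in Group D (1.72-fold higher), and another probe set differed by 0.28 without passing. Rfx5, which binds class II promoters, read 8.93, 9.12 and 9.08 against 8.29, 8.14 and 8.81. The class II chain RT1-Db1 (0.48) and the peptide-loading chain RT1-DMa (0.74) were higher, and Ctss, a protease of the same pathway, was lower (-0.67). The MHC class I and peptide loading list, by contrast, counted 3 lower and 2 higher of 18 (1 and 0 as deposited, median 0.05): Tap2 (0.90) and Tap1 (0.53), the peptide transporters, rose, and Erap1 (-0.88), Canx and Pdia3 (-0.63) fell. B cell genes counted 5 higher (41.7%) and 1 lower of 12 (1 and 1 as deposited, median 0.49), and 3 higher without Group A replicate 2. Among the higher were the IgE receptor Fcer2 (0.78) and the adaptor Blnk (0.63). The plasma cell and IgA list counted 5 higher (55.6%) and 0 lower of 9, at a median of 0.61 (4 and 1 without Group D replicate 3; 2 and 0 as deposited, median 0.61). One of them was Pou2af1, a coactivator of immunoglobulin genes, at 9.70, 9.87 and 9.69 in Group A and 9.14 ± 0.20 (SD, n = 3) in Group D.

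Of 25 genes of TNF and NF-kB signalling 8 passed higher and 5 lower (20.0%), also without Group D replicate 3 (1 and 5 as deposited, median 0.14), while 5 passed higher without replicate 1 or 3 of Group A. Relb, the subunit of the noncanonical pathway, read 8.64, 8.70 and 8.53 in Group A and 7.63, 7.71 and 7.76 in Group D (1.89-fold higher), and Nfkb1 read 9.93, 9.74 and 9.95 against 9.06, 9.14 and 9.39. Rela (0.69) and Nfkb2 (0.60) rose as well. Lower were Tnfrsf11b, the decoy receptor osteoprotegerin (4.59, 4.44 and 4.76 against 6.60, 6.86 and 5.66), Tnfaip6 (-2.31), Map3k7 (-0.91), Birc3 (-0.86) and Ripk1 (-0.72).

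Cytokines and their receptors counted 7 lower and 7 higher of 40 (17.5% each). Without Group D replicate 3 the counts were 8 and 7, and as deposited 5 and 2 (median -0.09). Tnf read 7.33, 7.26 and 7.10 in Group A and 5.97, 6.02 and 5.97 in Group D on its brighter probe set (2.37-fold higher, adjusted p = 0.00178), and the dimmer one differed by 0.35 and did not pass. Tgfb1, which restrains T cells, read 8.99, 8.98 and 8.77 against 8.25, 8.04 and 7.57. The falls were Il7r, Ifnar1 (-1.15), Il6st (-0.78), Il16 (-0.54) and the interleukin 1 family members Il18, Il1b and Il33. Il18 read 6.46, 6.39 and 6.82 against 8.38, 7.62 and 7.97, Il1b read 6.62, 5.80 and 6.02 against 7.64, 7.18 and 7.62, and Il33 read 8.73, 9.27 and 8.90 against 10.17, 10.09 and 10.60. Groups A and D did not overlap for Il18, Il1b or Il33. Chemokines and their receptors counted 3 lower (9.7%) and 4 higher (12.9%) of 31, with all arrays both under the shares over all genes. Without Group D replicate 3 the counts were 6 and 3, and as deposited 3 and 0 (median -0.05). Cxcl13, which draws B cells into follicles, fell (9.77, 9.58 and 9.34 against 10.60, 10.44 and 10.47), as did Cxcl9, which varied widely in Group D (8.14, 6.47 and 8.94) and did not pass on its brighter probe set without replicate 3 (adjusted p = 0.0657, and 0.0188 on the dimmer one). Cxcl12, which retains lymphocytes, rose by 0.65 and 0.77 on 2 probe sets and differed by -0.36 on another. Interferon response genes counted 3 lower and 1 higher of 19 (the same as deposited, median -0.36): Gbp2 (6.58, 6.41 and 6.39 against 8.46, 7.84 and 8.52), Mx1 (-1.42) and Eif2ak2 (-0.93) were lower, and Irf7 was higher (8.10 ± 0.27, SD, n = 3, against 7.29, 6.87 and 6.87).

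Immediate early genes, which cells switch on within minutes of a stimulus, counted 9 higher (39.1%) and 1 lower of 23, at a median of 0.52. Without Group D replicate 3 the counts were 8 and 0 (median 0.42), and as deposited 1 and 0 (median 0.46). Egr1 read 9.42, 9.85 and 9.71 in Group A and 8.84, 9.02 and 8.80 in Group D (1.71-fold higher), Egr2 read 7.63, 7.82 and 7.65 against 6.69, 7.13 and 7.02, and Nr4a1 read 7.65, 7.88 and 7.66 against 6.92, 7.04 and 6.79. Zfp36, which destabilises cytokine mRNA, differed by 0.63 with a very small spread (9.26, 9.29 and 9.35 against 8.83, 8.53 and 8.66). Each of these genes had every array of Group A above every array of Group D.

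The CArG box, the binding motif of serum response factor, is found in promoters of immediate early and of smooth muscle genes, and examples from both lists are shown. It was held by 501 of 33469 promoters searched in the same way (1.5%), by 4 of 17 immediate early genes (23.5%) and by 2 of 23 smooth muscle genes (8.7%). The match began 83 bases before the start of Egr2 (chr20:21054442-21054691, minus strand), 32 bases before that of Zfp36 (chr1:92799109-92799358, minus strand) and 94 bases before that of Acta1 (chr19:68784195-68784444, minus strand), as marked in capitals.
Egr2: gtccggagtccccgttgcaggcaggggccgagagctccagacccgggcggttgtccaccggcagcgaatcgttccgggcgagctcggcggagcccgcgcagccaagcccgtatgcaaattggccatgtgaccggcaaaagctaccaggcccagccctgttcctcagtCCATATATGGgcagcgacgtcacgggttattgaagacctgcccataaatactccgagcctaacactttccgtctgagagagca
Zfp36: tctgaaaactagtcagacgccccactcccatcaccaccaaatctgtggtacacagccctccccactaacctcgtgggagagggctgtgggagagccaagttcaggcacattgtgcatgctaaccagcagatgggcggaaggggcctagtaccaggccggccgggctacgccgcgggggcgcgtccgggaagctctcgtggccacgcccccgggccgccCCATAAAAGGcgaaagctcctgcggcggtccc
Acta1: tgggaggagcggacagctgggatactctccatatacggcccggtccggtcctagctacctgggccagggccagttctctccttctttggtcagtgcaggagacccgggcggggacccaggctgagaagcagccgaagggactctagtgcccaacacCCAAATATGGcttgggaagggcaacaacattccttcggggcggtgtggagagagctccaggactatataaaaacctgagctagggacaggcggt
The 4 immediate early genes with the motif did not share a direction: Egr1, Egr2 and Zfp36 passed higher, and Klf6 passed lower (-0.56, adjusted p = 0.0397, and 0.105 when Group D replicate 3 was left out). Acta1, an actin of muscle, read 2.35, 3.04 and 2.75 in Group A and 6.53, 6.63 and 3.49 in Group D (-2.83).

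Chromatin regulators counted 12 higher and 6 lower (12.5%) of 48, and 17 and 6 without Group D replicate 3 (1 and 5 as deposited, median 0.01). Smarcc2, a core subunit of the SWI/SNF remodeller, read 8.33, 8.38 and 8.35 in Group A and 7.42, 7.50 and 7.48 in Group D (1.85-fold higher, adjusted p = 0.000132). The histone acetyltransferases Ep300 (0.77) and Crebbp (0.60) and the SWI/SNF subunit Arid1a (0.67) were higher in the same way. Smarca5, the ATPase of a different remodeller, was lower on all 3 of its probe sets (-1.50, -1.02 and -0.77), and so were the polycomb genes Eed (-0.62) and Ezh2 (-0.56).

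Among macrophage and dendritic cell markers 5 of 19 passed higher and 2 lower (2 and 3 without Group D replicate 3; 0 and 1 as deposited, median -0.17), and the number higher ran from 0 without Group A replicate 2 to 7 without Group D replicate 1. The complement gene C1qa read 10.75, 10.80 and 10.79 in Group A and 10.55, 9.84 and 9.56 in Group D, so that Group D varied much more than Group A. Mpeg1, a pore-forming protein of macrophages, fell (8.17, 8.32 and 8.26 against 9.18, 8.89 and 10.04). The neutrophil list counted 4 higher (28.6%) and 0 lower of 14, at a median of 0.60 (3 and 0 without Group D replicate 3; 3 and 0 as deposited, median 0.44), with differences from 1.46 (Mmp9) to 3.72 (S100a8). It was 6 higher without Group D replicate 1. Of 24 endothelium genes 3 passed lower (12.5%) and 4 higher (16.7%), near the shares over all genes (12.0% and 16.0%), and 2 and 0 as deposited. Among them Plvap, of capillary pores, rose (10.03, 10.28 and 10.02 against 9.47, 9.47 and 8.46). The adhesion molecule Vcam1 fell (8.92, 9.25 and 9.23 against 10.11, 9.91 and 10.13). Of 18 stroma genes 3 passed lower and 3 higher (16.7% each, and 6 and 2 without Group D replicate 3). Grem1, a BMP antagonist of fibroblasts, was the clearest fall, at 7.40, 7.54 and 7.70 against a mean of 9.03 ± 0.08 (SD, n = 3), with Groups B (9.04) and C (8.95) level with Group D.

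Muscle, nerve and mesothelium genes separated the arrays of Group D from one another. Of 28 smooth muscle genes 11 passed lower (39.3%) and 1 higher, at a median of -0.82, and 21 and 0 at a median of -1.38 without Group D replicate 3. Leaving out Group A replicate 2 left 5 lower, leaving out Group D replicate 1 left 4, and a fit of the 6 arrays alone left 3. Actg2, the actin of visceral smooth muscle, read 5.65, 5.83 and 5.48 in Group A and 11.41, 11.17 and 5.88 in Group D. Replicate 3 was thus level with Group A, and Groups B (4.69) and C (4.50) were low as well. Myh11, smooth muscle myosin, read 6.32, 6.01 and 6.03 against 9.75, 10.13 and 7.55, and Cnn1, calponin, read 4.35, 5.09 and 4.43 against 8.97, 8.70 and 5.07. The summed level of the list, given as the mean of its genes, lay between 6.52 and 6.63 in Group A and at 8.43, 8.41 and 6.45 in Group D.

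Of 27 enteric neuron genes 0 passed lower and 2 higher with all arrays, and 9 and 2 without Group D replicate 3. The neuropeptide gene Gal read 3.30, 4.25 and 1.95 in Group A and 7.53, 7.67 and 3.39 in Group D, and passed only without replicate 3 (adjusted p = 0.0714 with it and 0.00321 without it). For Vip (2.86, 2.96 and 2.82 against 5.53, 5.04 and 3.04) replicate 3 was likewise the low array of Group D. Mean levels over the list lay between 3.35 and 3.65 in Group A and at 4.77, 4.76 and 2.95 in Group D. The defining marker Tubb3 overlapped between the groups, with 3.20, 4.38 and 4.70 against 5.35, 5.58 and 3.06. Ret, a receptor of enteric neurons, was the opposite case and rose on all 3 probe sets (0.87, 1.36 and 1.33).

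Mesothelium and keratin genes counted 5 lower and 0 higher of 14, and 9 and 0 without Group D replicate 3, but 2 and 0 without replicate 2 of Group A or of Group D. Upk1b, of the lining of the abdominal cavity, split Group D in the way of the muscle genes (3.47, 2.77 and 3.92 against 6.67, 6.55 and 3.99). Krt19 did not: its arrays read 3.59, 3.29 and 4.39 in Group A and 6.38, 7.13 and 7.21 in Group D, replicate 3 included, with Groups B and C at 3.95 and 3.25. Scn7a, a sodium channel of glia and muscle, was likewise high on all arrays of Group D (7.35, 8.65 and 8.57) against 4.81, 5.11 and 5.24 in Group A. Peripheral glia genes at large did not share this fall: 1 of 15 passed lower (6.7%) and 3 higher (20%), at a median of -0.01. Without Group D replicate 3 the glia counts were 3 lower and 4 higher, and as deposited 1 and 1. How much muscle, nerve or serosa each dissected node held was not measured, and its part in these differences was not tested.

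**Figure D4:**
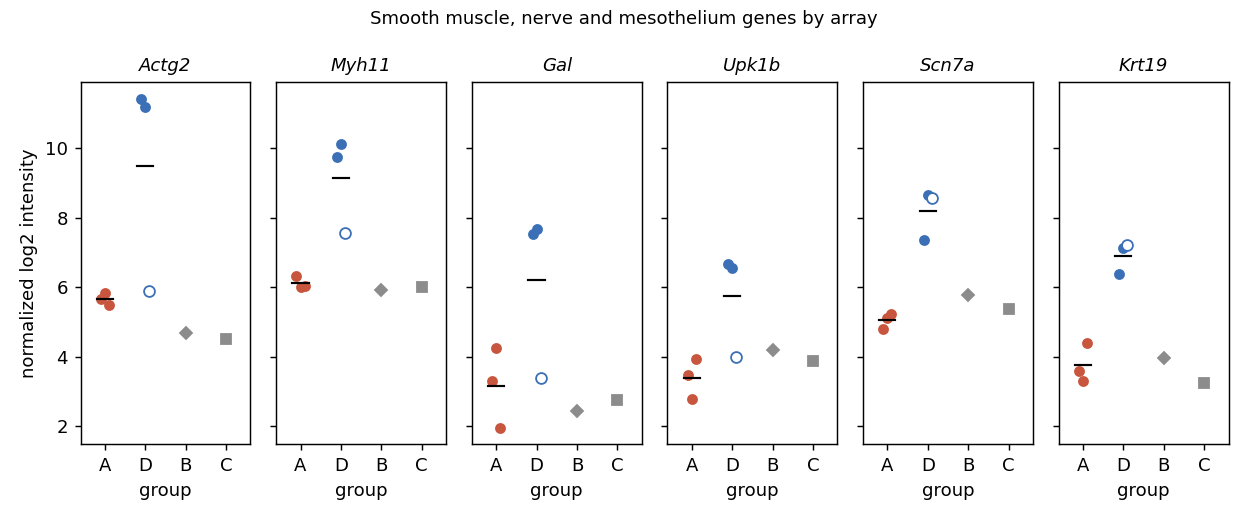
Normalized log2 intensity of smooth muscle, nerve and mesothelium genes, with a point for each array of Groups A and D; black lines are their means, grey markers the means of Groups B and C, and the open circle is Group D replicate 3. For Actg2, Myh11, Gal and Upk1b the open circle lies well below the other arrays of Group D, and for Scn7a and Krt19 it lies with them.

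Genes that the study singled out on these same arrays are no independent evidence. Of 9 such genes 2 passed lower and 1 higher, and 7 and 1 without Group D replicate 3. By RT-PCR the paper also reported less mRNA of Gal, Actg2, Timp1, Syt1, Acta2 and Ccn2 after CLA, and no change in Grb2. Timp1, an inhibitor of matrix proteases, read 7.63, 7.64 and 7.85 in Group A and 8.77, 8.94 and 6.51 in Group D (-0.37, and -1.15 without replicate 3). Ccn2, connective tissue growth factor, read 7.03, 7.32 and 7.37 against a mean of 7.80 ± 1.16 (SD, n = 3) in which replicate 3 was lowest at 6.56 (-0.56, and -1.18 without it). Matrix genes at large counted 4 lower (9.3%) and 5 higher (11.6%) of 43, both under the shares over all genes (12.0% and 16.0%). Without Group D replicate 3 the counts were 13 and 4, and as deposited 4 and 0. Leaving out replicate 2 or 3 of Group A left 2 higher. Dcn, the proteoglycan decorin, was lower (8.27, 8.01 and 8.29 against 10.06, 10.64 and 9.14). The basement membrane chain Col4a1 was higher (10.42, 10.49 and 10.42 against 9.69, 10.21 and 9.58). Among proteases Adam10, which sheds membrane proteins, was lower (4.87, 5.05 and 5.15 against 6.76, 6.92 and 7.84), and Mmp19 (1.09) and the inhibitor Timp4 (0.84) were higher.

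Of the genes for lipids, the PPAR target and fatty acid oxidation list had 10 of 37 lower (27.0%) and 5 higher (13.5%), and 11 and 7 without Group D replicate 3 (7 and 1 as deposited), with 2 higher without replicate 2 or 3 of Group A. Oxidation enzymes were among the falls. Acadm, which starts the breakdown of medium chains, read 7.62, 7.53 and 7.57 in Group A and 8.71, 8.88 and 9.16 in Group D (2.54-fold lower), and Etfdh, which passes the electrons on, read 5.14, 5.19 and 5.46 against 6.77, 6.92 and 6.96 (3.08-fold lower). Etfa (-1.46), Eci2 (-1.13) and Decr1 (-0.81) fell too. Cd36, a fatty acid carrier and PPAR target, read 6.92, 6.65 and 7.10 against 9.21, 9.13 and 8.95 (4.61-fold lower), and Pparg itself read 5.32, 4.97 and 5.58 against 6.19, 6.68 and 6.45. Against these, Angptl4, a PPAR target that inhibits lipoprotein lipase, rose 3.50-fold (8.96, 9.22 and 8.83 against 7.49, 6.44 and 7.66), and it was also above Group D in Groups B (8.38) and C (8.69). Ucp2, a mitochondrial carrier, rose 1.71-fold, and Ucp3 (0.96) and Cpt1b (0.73) were higher.

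Among the lipid genes that passed, the largest rise and the largest fall were in eicosanoid enzymes. Alox15, which oxygenates linoleic and arachidonic acid, read 7.74, 8.06 and 7.72 in Group A and 5.29, 4.25 and 5.85 in Group D, 6.53-fold higher (log2 difference 2.71 ± 0.36 SE, adjusted p = 0.000266). Group B lay between them at 6.91 and Group C at 5.76. Ptgis, prostacyclin synthase, was lower (1.11, 2.38 and 3.39 against 6.82, 7.05 and 3.38), with Group D replicate 3 again level with Group A. Replicates 1 and 2 of Group A were within background for Ptgis, and its call was lost in 9 of the 24 alternative settings. The list held 22 measured genes, and the only other one that passed was the phospholipase Pla2g6 (0.82).

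Synthesis of fatty acids had 6 of 25 genes lower and 1 higher, and 4 and 1 without Group D replicate 3 (3 and 0 without Group A replicate 2). Elovl6, which lengthens palmitate, fell (5.36, 5.40 and 4.62 against 6.30, 6.36 and 8.12), as did the acyl-CoA synthetases Acsl5 (-1.12), Acsl3 (-0.98) and Acsl1 (-0.89). Scd, the stearoyl-CoA desaturase, read 10.51, 9.94 and 10.80 against 9.01, 8.45 and 11.89, so that its difference was 0.63 with all arrays (adjusted p = 0.558) and 1.69 without Group D replicate 3 (adjusted p = 0.000724). Among cholesterol genes 3 of 22 passed lower and 3 higher (13.6% each, and 7 and 2 without Group D replicate 3). Srebf2, the pathway's transcription factor, was among the higher (0.58). Of 18 genes for lipid uptake and export 5 passed each way (3 lower and 6 higher without Group D replicate 3, 2 and 6 without Group D replicate 2, 3 and 3 without replicate 1 or 2 of Group A). Vldlr, a lipoprotein receptor, was lower on all 4 of its probe sets, while the cholesterol exporter Abcg1 (9.83, 9.93 and 10.17 against 9.05, 9.24 and 8.86) and the phospholipid transfer protein Pltp (9.33, 9.61 and 9.47 against 8.99, 8.39 and 7.74) were higher.

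**Figure D5:**
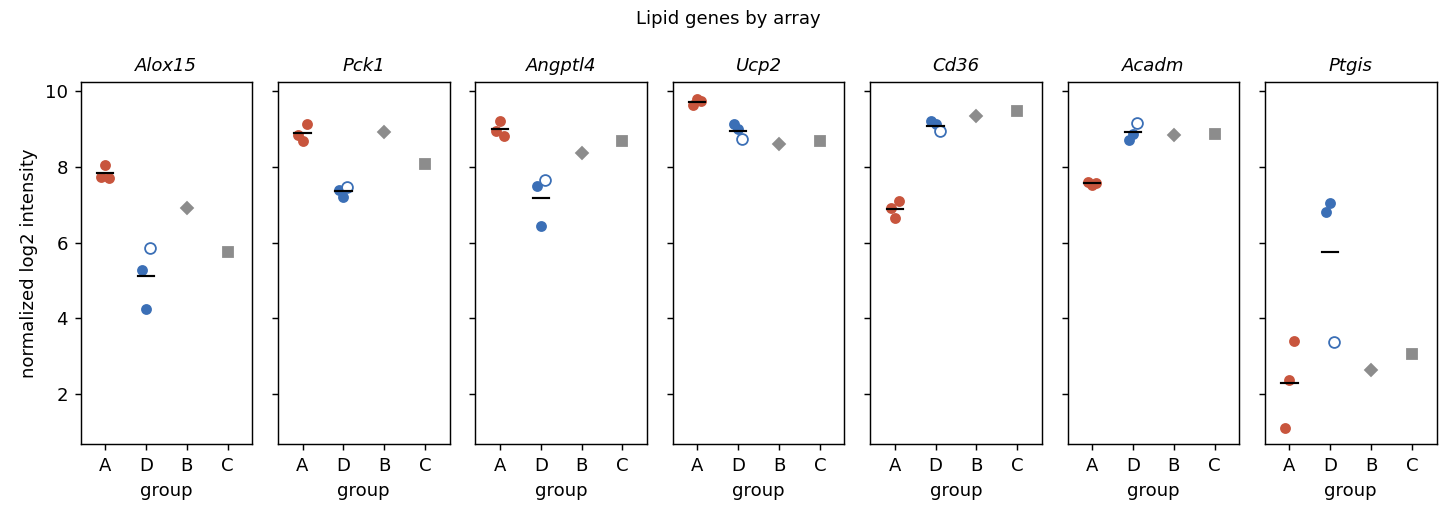
Normalized log2 intensity of 7 lipid genes, with a point for each array of Groups A and D; black lines are their means, grey markers the means of Groups B and C, and the open circle is Group D replicate 3. All arrays of Group A lie above those of Group D for Alox15, Pck1, Angptl4 and Ucp2 and below them for Cd36 and Acadm.

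Markers of neighbouring tissues varied within Group D as well. Gut epithelium genes counted 3 lower and 0 higher of 19. The number lower was 8 without Group D replicate 1, 1 without Group D replicate 3 or replicate 2 or 3 of Group A, and 0 in a fit of the 6 arrays alone. Lypd8, of the colon surface, read 4.59, 4.64 and 4.52 in Group A and 5.33, 7.72 and 9.62 in Group D, and Epcam read 3.23, 1.99 and 2.26 against 3.70, 5.06 and 7.29. The defining genes Fabp1 (0.00, 5.46 and 5.38 in Group D) and Fabp2 (0.00, 5.82 and 2.97) were at the floor on replicate 1 of Group D, and Fabp2 was at the floor on all arrays of Group A. The mean over the list was 3.50, 3.50 and 3.32 in Group A and 3.50, 4.81 and 5.16 in Group D, and its part in other differences was not tested. Adipocyte genes counted 4 lower and 0 higher of 20 (2 without replicate 1 or 2 of Group A or Group D replicate 2), Adipoq among them (-0.80), and the fat hormone Lep was within background on every array of both groups. Pancreas genes counted 0 in either direction of 16.

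By a rule on size, the largest falls with 1 gene symbol were in probe sets of RT1-Bb, Ipo5, Immt, Pls3, Car1, Rabep1, Map4k5, Pus3, Nudt21, Septin2, Magt1, Spink8, Actg2, Pcp4 and Zfp62. Of these, the probe sets of Ipo5, Immt, Pls3, Rabep1, Map4k5, Nudt21, Spink8 and Zfp62 lay within background on all arrays of Group A, so their falls are bounds. The bounds were at least 6.66-fold for the endosomal protein Rabep1 and at least 5.51-fold for the kinase Map4k5. Each of these genes except Spink8 also has a brighter probe set, which stood for the gene in the counts. The bounds therefore cover only the probe sets of this rule and not the genes as a whole. Magt1, a magnesium transporter and subunit of the oligosaccharyltransferase, was above background throughout and read 4.53, 3.93 and 4.33 in Group A and 8.23, 8.13 and 8.11 in Group D, a 14.8-fold lower level (adjusted p = 2.06e-07). Groups B (8.54) and C (8.46) were level with Group D. Septin2, of the cytoskeleton, was 14.9-fold lower on this probe set (4.99, 0.82 and 4.16 against 7.35, 7.54 and 6.76) and 2.25-fold lower on its brighter one. Pcp4, Purkinje cell protein 4, split Group D like Actg2 (8.35, 7.85 and 4.44). For RT1-Bb, an MHC class II chain, the falling probe set read 3.50, 2.13 and 2.92 against 9.72, 9.48 and 9.75. On it Group B averaged 9.80 and Group C 5.61 ± 3.45 (SD, n = 3), so arrays of Group C lay far apart. The brighter one was 11.51, 11.88 and 11.46 against 10.95, 10.82 and 10.67, so that 2 probe sets of the same gene pointed in opposite directions. The brighter did not pass (limma, adjusted p = 0.775), although its arrays of Groups A and D did not overlap. That p rests on a spread estimated over all 12 arrays, Groups B and C included.

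The largest rises by the same rule were LOC100910237, S100a8, Foxr1, Stfa2l2, Nr1h4, Slc4a1, Adcyap1r1, Apex1, RT1-CE10, Kcnip3, Vstm2b, Alox15, Slc16a13, Eeig2 and Rtkn. LOC100910237, a locus with no assigned name, read 5.44, 5.62 and 5.38 in Group A and was within background in Group D, a level at least 6.47-fold higher, and it was 1.25 in Group B and 4.21 in Group C. Foxr1 (at least 3.30-fold), Slc4a1 (at least 3.99-fold), Apex1 (at least 2.74-fold), Adcyap1r1 (at least 2.21-fold), Nr1h4, the bile acid receptor (at least 1.69-fold), and Vstm2b (at least 1.31-fold) were likewise within background in Group D. A brighter probe set of Slc4a1 differed by 0.20 and did not pass. Apex1 and Adcyap1r1 also have a brighter probe set each, which stood for the gene in the counts, so their bounds cover only the probe sets of this rule. RT1-CE10, an MHC class I gene, read 10.61, 10.27 and 10.58 against 6.82, 6.59 and 9.77, while Groups B and C were at 6.53 and 9.96, so that arrays of the same diet lay far apart. Eeig2 read 5.56, 5.53 and 5.94 against 3.04, 2.97 and 3.11 (6.20-fold higher, adjusted p = 0.000481), with no such split within either group, but a brighter probe set of the gene passed in the opposite direction (-0.79).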

How the data were processed

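RNA of each node was hybridised to 1 Rat Genome 230 2.0 array. The deposited values are linear MAS5 intensities, a tool named in the authors' processing notes, and no source used here gives the scaling target. Of 31099 probe sets, 57 controls were left out. The 30 values of 0 were set to the smallest positive value (0.1), and all 12 arrays were quantile normalized, floored at 1 and taken to log2. limma 3.58.1 in R 4.3.3 fitted 1 mean per group over the 12 arrays, with an intensity trend in the variance, and p-values of the contrast of Group A with Group D were adjusted over all probe sets by the method of Benjamini and Hochberg. A 2-fold call needed an adjusted p under 0.05. A gene was read from its brightest probe set over all arrays. Where all arrays of a group were within background, a fold is written as a bound. Named genes were members of the lists and, in each direction, the 15 largest changes among probe sets with 1 symbol that were 2-fold called with and without Group D replicate 3, did not overlap between the groups and were above background on all arrays of the brighter group. The fit was tested on simulated data. The number of arrays limits the precision. The p-values set the difference between Groups A and D against the spread within groups, estimated over all 12 arrays. That spread is between pups of unknown litter and need not be the spread between dams. The gene lists and named members were chosen with earlier results of these data known. Alternatives were other scalings, floors, filters, variance models and sample sets.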

Additional observations from a re-analysis of the deposited data

Results flagged for a closer look

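Control probe sets outside the comparisons differed between the groups. The spike-in control r2-Ec-bioC-3 was lower in Group A (8.07, 8.30 and 8.04 against 8.50, 8.70 and 8.88, limma, adjusted p = 0.0138). So was r2-Ec-bioD-3 (-0.47, limma, adjusted p = 0.0262), whose arrays overlapped. The remaining spike-in and housekeeping control probe sets did not pass, and the part of the spike-ins in the results above was not tested. The probe set for 5S ribosomal RNA, which the array carries as a control, read 6.21, 6.45 and 6.19 in Group A and 5.40, 5.33 and 5.67 in Group D, a log2 difference of 0.82 (limma, adjusted p = 0.00867), with no overlap between the arrays.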

How the results depend on the processing

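Of the genes named above, 141 probe sets were followed through the 24 alternative settings, and Gal, Timp1, Cct2 and Scd, for instance, were not among them. Of these 141, 75 kept their call in every setting that tested them, 66 lost it in at least 1, and 0 reversed. The other named genes were not followed. Of the 141, 122 remained in the test without the dimmest 40% and 127 with 1 probe set per gene. With the intensities as deposited, 225 probe sets were 2-fold higher, lower ones made up 91.06% of calls, and 23 listed genes passed higher. Quantile normalization and fit of the 6 arrays gave 97 listed genes higher. Fitting the 6 arrays alone gave 483 probe sets higher and 94 listed genes higher, and a fit with no trend gave 116 listed genes higher. With a floor of 32, 1062 probe sets were lower and 380 higher (73.65% lower), and probe sets of a gene shared their sign in 49.99% of genes. A difference of exactly 0, as between values at the floor, counted as no shared sign. That share was 66.41% after centring on the 75th percentile and 71.25% without the dimmest 40%. An unadjusted p gave 1351 higher (63.65% lower) with moderation and 65.99% lower without it. With 1 probe set per gene, which tested 14217 in place of 31042, 829 were lower and 437 higher (65.48% lower). Probe sets with 1 symbol were 73.84% lower. The cause of these shifts was not tested.

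Leaving out 1 array at a time gave 1491 (without Group A replicate 2) to 1897 (without Group D replicate 1) probe sets lower, 429 (without Group A replicate 2) to 1087 (without Group D replicate 3) higher, and 62.34% to 77.66% lower. Listed genes ranged from 284 to 423 lower and from 119 to 225 higher, and the shared sign from 63.64% to 69.27%.

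The labels give both groups the same replicate numbers, but the deviations of same-numbered arrays correlated at only 0.0796, 0.006 and 0.0826, and replicate 2 of Group A correlated best with another number, so the numbers were not taken as a pairing. With the replicate block, 1838 probe sets were lower and 728 higher (71.63% lower), and 368 listed genes passed lower and 213 higher. The shared sign was 68.3%, and 140 of the 141 probe sets followed kept their call.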
